A study of Mus musculus with 8 samples.

Results

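A set of 9 genes that mark B cells or shape their identity was followed in RNA of CD11c-positive spleen cells from lupus-prone and control mice. They were chosen by name as B cell receptor, transcription factor and CD11c-positive B cell genes, and all 9 were present among the 13786 genes of the count table. Cells selected on CD11c, the integrin encoded by Itgax, came from 4 C57BL/6 mice and from 4 B6.SLE123 mice, all of them female and 7 weeks old, and no mouse was treated. B6.SLE123 mice are C57BL/6 mice that carry lupus susceptibility intervals from another strain. Whether any gene named here lies in those intervals, or is counted differently for its allele, was not tested. The labels call the cells dendritic cells, a CD11c-selected preparation that can also hold B cells and other leukocytes, and their titles give strain and mouse number, but their genotype entry differs for every mouse, with a strain name whose last number goes up along the list. The strain was therefore taken from the mouse names, and the replicates were separate mice.

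B cells sense antigen through an immunoglobulin that signals only together with the paired chains Cd79a and Cd79b. Pax5 and Ebf1 are transcription factors that commit precursors to the B lineage and keep its genes on, and both act directly on the genes of the receptor chains. In lupus and with age, a further set of B cells accumulates in the spleen that carries CD11c and depends on the T-box factor T-bet, the product of Tbx21. Because those cells carry the marker used here for selection, they could stand beside dendritic cells in the preparation.

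Cd79b, Ebf1 and Tbx21 share chromosome 11 and the other genes lie on chromosomes of their own, and the coordinates in the table, of build mm10, were the same in the GENCODE M21 annotation. Cd79a (ENSMUSG00000003379.7) spans chr7:24897381-24902197 on the plus strand, and Cd79b (ENSMUSG00000040592.11) spans chr11:106311341-106314762 on the minus strand. Pax5 (ENSMUSG00000014030.15) spans chr4:44524757-44710487 on the minus strand, and Ebf1 (ENSMUSG00000057098.14) spans chr11:44617317-45008091 on the plus strand. Blk (ENSMUSG00000014453.4), which encodes a Src family kinase of the B cell receptor, spans chr14:63372836-63417037 on the minus strand. Fcer2a (ENSMUSG00000005540.10), which encodes the low-affinity IgE receptor CD23, spans chr8:3681737-3694175 on the minus strand. Fcrl5 (ENSMUSG00000048031.15), an Fc receptor-like gene, spans chr3:87435773-87500678 on the plus strand. Tbx21 (ENSMUSG00000001444.2) spans chr11:97098071-97115331 on the minus strand, and Zeb2 (ENSMUSG00000026872.18), which encodes a zinc finger factor that binds E-boxes, spans chr2:44983632-45117395 on the minus strand. No other annotated gene overlaps Cd79a, Cd79b, Blk, Fcer2a, Fcrl5 or Tbx21. Exons of Pax5 and Zeb2 overlap exons of genes on the other strand. The library kit keeps the strand, but the strand setting of the counting was not given in the sources used here, so reads of Pax5 and Zeb2 could not be told apart from reads of those partners.

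Sequence before the start site was read for genes that moved in opposite directions between the strains, a pair that fell (Cd79a and Fcer2a) and a pair that rose (Fcrl5 and Tbx21). RefSeq windows of build GRCm38.p6, with 250 bases before and 50 bases after each start, matched 7 of the 9 genes, in 13 windows. The bases below run 5′ to 3′ on the strand of the gene from 250 bases before the RefSeq start up to that start or to the annotated gene, whichever came first, and capitals mark the E-box CAGGTG, the form that E2A and ZEB proteins bind.
Cd79a, chr7:24897247-24897380, plus strand: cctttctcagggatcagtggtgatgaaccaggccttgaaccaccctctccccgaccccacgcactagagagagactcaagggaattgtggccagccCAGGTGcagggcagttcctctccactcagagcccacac
Fcer2a, chr8:3694176-3694424, minus strand: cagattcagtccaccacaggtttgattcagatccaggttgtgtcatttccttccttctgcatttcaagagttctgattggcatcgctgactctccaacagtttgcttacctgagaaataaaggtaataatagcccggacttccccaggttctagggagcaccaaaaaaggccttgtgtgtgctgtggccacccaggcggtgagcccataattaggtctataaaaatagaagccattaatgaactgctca
Fcrl5, chr3:87435532-87435772, plus strand: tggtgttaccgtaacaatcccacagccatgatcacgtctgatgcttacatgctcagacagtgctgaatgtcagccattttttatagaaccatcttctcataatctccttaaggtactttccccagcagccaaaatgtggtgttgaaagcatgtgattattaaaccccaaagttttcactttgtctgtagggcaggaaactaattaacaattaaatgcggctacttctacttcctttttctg
Tbx21, chr11:97115332-97115581, minus strand: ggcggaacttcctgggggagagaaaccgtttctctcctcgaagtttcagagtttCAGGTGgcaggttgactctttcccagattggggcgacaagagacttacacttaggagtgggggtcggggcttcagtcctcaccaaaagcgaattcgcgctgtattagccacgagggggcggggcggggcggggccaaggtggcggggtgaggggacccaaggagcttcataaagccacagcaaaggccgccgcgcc
Counted from the start site, the E-box began at base -154 of Cd79a and at base -196 of Tbx21, and neither the window at the first Fcer2a start nor that of Fcrl5 held it. Another annotated start of Fcer2a, inside the gene, had it at bases -244 and -99. On either strand, CAGGTG was in 3 of the 13 windows, against 20.2% of all 32851 RefSeq windows of that length. The EBF core CCCNNGGG, the octamer ATGCAAAT and the T-box site AGGTGTGA were in 0 of the 13 windows, against 13.7%, 1.74% and 1.28% of all windows, and none of these motifs overlaps another in its letters except that the T-box site and the E-box share AGGTG. A match is a run of letters and not a bound site. Only these exact letters were searched, so a window without them can still hold a variant of such a site.

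The whole set differed between the strains in 8 of its 9 genes. In B6.SLE123 mice 6 genes were lower (Cd79a, Cd79b, Pax5, Ebf1, Fcer2a and Zeb2), 2 were higher (Tbx21 and Fcrl5), and Blk did not pass the test (edgeR quasi-likelihood test, adjusted p below 0.05 over all 13786 genes). The background was broad, with 26.6% of all genes lower and 26.7% higher in the same test. For the same 8 genes the 4 values of each strain did not overlap, a state found for 24.5% of all genes in the lower direction and 24.4% in the higher. The median log2 fold change was -0.56 over the 9 genes and -0.0019 over all genes. Values are CPM (each count over its library total, in millionths), scaled between libraries by the trimmed mean of M values, and in such bulk RNA fewer B cells and less RNA of a gene per cell cannot be told apart.

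The receptor chains fell together. Cd79a stood at 77.3, 87.5, 93.8 and 87.4 CPM in C57BL/6 mice 1 to 4 and at 65.9, 50.2, 64.7 and 54.4 CPM in B6.SLE123 mice 1 to 4. Every B6.SLE123 mouse was below every control mouse. The means were 86.5 ± 6.82 and 58.8 ± 7.71 CPM (SD, n = 4 each), so that Cd79a fell to 68.0% of the control level (log2 fold change -0.56, SE 0.09, edgeR adjusted p = 0.000376). Cd79b stood at 86.2, 91.6, 100.9 and 97.0 CPM in control mice and at 63.0, 49.8, 63.2 and 58.1 CPM in B6.SLE123 mice. It too separated the strains fully, with B6.SLE123 mouse 2 the lowest for both chains. Cd79b fell from 93.9 ± 6.41 to 58.5 ± 6.28 CPM, to 62.3% (log2 fold change -0.68, SE 0.08, edgeR adjusted p = 3.13e-05). Counted against its partner, Cd79b was at 108.7 ± 3.17 counts per 100 Cd79a counts in control mice and 99.8 ± 4.83 in B6.SLE123 mice, with overlapping values (exact permutation of the mice, two-sided, p = 0.0571).

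Pax5 and Ebf1, the lineage factors, were lower by a like amount. Pax5 stood at 62.9, 75.7, 74.0 and 64.7 CPM in control mice and at 56.0, 40.1, 51.5 and 45.4 CPM in B6.SLE123 mice. The highest B6.SLE123 mouse lay below the lowest control mouse, and the drop from 69.3 ± 6.46 to 48.2 ± 6.94 CPM left 69.6% of the level (log2 fold change -0.52, SE 0.10, edgeR adjusted p = 0.00112). Ebf1, at 16.2, 20.4, 18.4 and 16.1 CPM in control mice, stood at 11.7, 9.95, 11.4 and 11.6 CPM in B6.SLE123 mice. The B6.SLE123 mice were closer to each other than the control mice were, and Ebf1 fell to 62.8%, from 17.8 ± 2.03 to 11.2 ± 0.820 CPM (log2 fold change -0.67, SE 0.09, edgeR adjusted p = 0.000111).

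Among genes of mature B cells, Fcer2a fell further and Blk showed no detectable difference. Fcer2a, which in mice is high on follicular B cells, stood at 40.8, 46.1, 47.1 and 46.0 CPM in control mice and at 26.7, 18.2, 19.9 and 21.1 CPM in B6.SLE123 mice. The gap between the strains was wider than the range within either. Fcer2a fell from 45.0 ± 2.85 to 21.5 ± 3.68 CPM, to 47.7% (log2 fold change -1.07, SE 0.10, edgeR adjusted p = 9.61e-06). Blk stood at 38.3, 46.4, 46.5 and 43.9 CPM in control mice and at 42.0, 46.2, 52.4 and 42.6 CPM in B6.SLE123 mice. The strains overlapped, and 43.8 ± 3.85 against 45.8 ± 4.77 CPM gave a log2 fold change of 0.07 (95% interval -0.11 to 0.25, edgeR adjusted p = 0.520). That interval does not reach the drop of the receptor chains, and without B6.SLE123 mouse 3, the highest for Blk, the log2 fold change was -0.0049.

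The genes linked to CD11c-positive B cells moved in opposite directions. Tbx21 stood at 21.7, 25.0, 21.2 and 24.2 CPM in control mice and at 33.5, 37.5, 38.2 and 34.8 CPM in B6.SLE123 mice. All B6.SLE123 mice were above all control mice with little spread, and Tbx21 rose 1.56-fold, from 23.0 ± 1.88 to 36.0 ± 2.20 CPM (log2 fold change 0.65, SE 0.07, edgeR adjusted p = 1.95e-05). Fcrl5, the lowest of the set in CPM in control mice, stood at 6.24, 6.37, 7.84 and 5.33 CPM in control mice and at 8.76, 9.60, 17.5 and 9.76 CPM in B6.SLE123 mice. B6.SLE123 mouse 3 stood far above the other 3, which were still above every control mouse. Fcrl5 rose 1.77-fold, from 6.45 ± 1.04 to 11.4 ± 4.08 CPM (log2 fold change 0.82, 95% interval 0.35 to 1.30, edgeR adjusted p = 0.00784), and without B6.SLE123 mouse 3 the log2 fold change was 0.54 (edgeR adjusted p = 0.00546).

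Zeb2, which T-bet-positive B cells use and which macrophages and other myeloid cells express as well, showed the widest change of the 9 genes. It stood at 196.5, 183.8, 187.7 and 148.9 CPM in control mice and at 81.1, 64.6, 89.1 and 85.1 CPM in B6.SLE123 mice. Even the lowest control mouse was well above every B6.SLE123 mouse. Zeb2 fell from 179 ± 20.9 to 80.0 ± 10.7 CPM, to 44.6% (log2 fold change -1.16, SE 0.11, edgeR adjusted p = 6.08e-06).

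**Figure D1:**
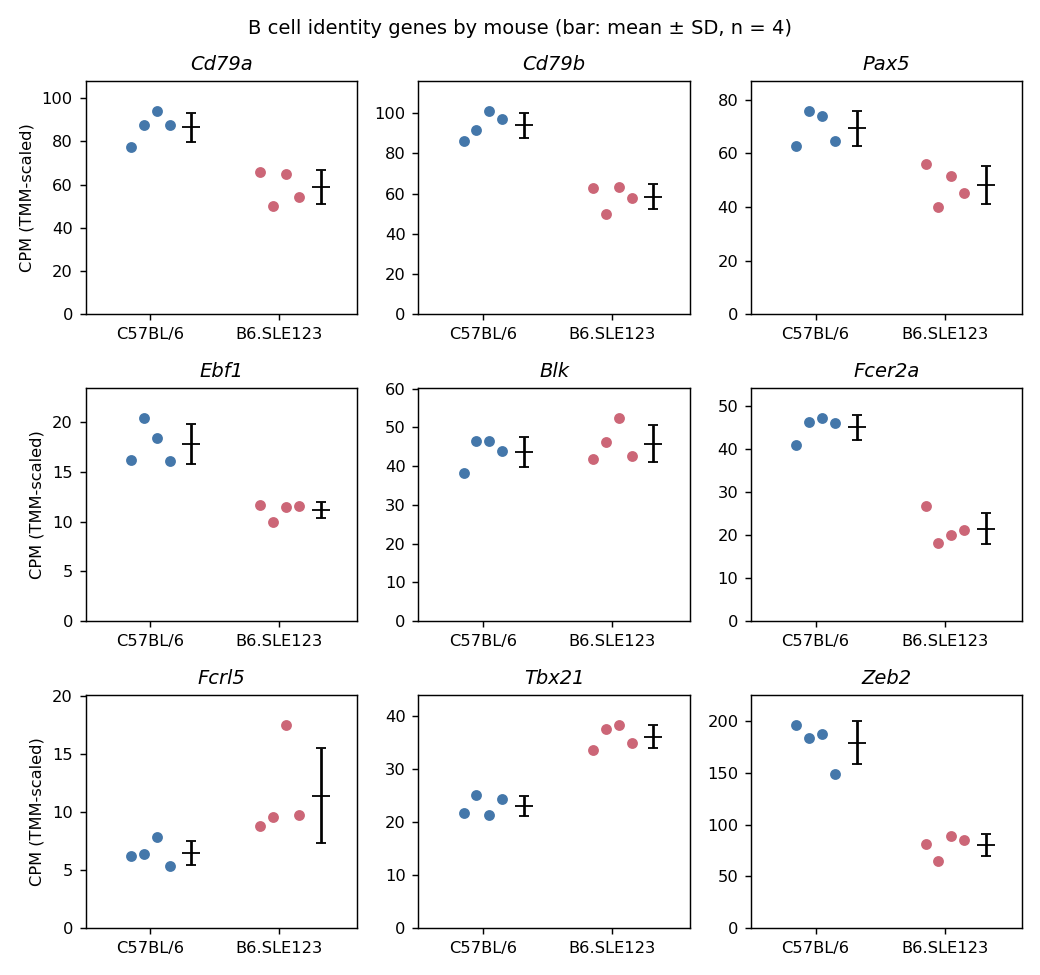
Each panel plots the level of a gene in CPM (vertical axis, starting at 0) for each mouse (points, in the order of the mouse numbers) of the C57BL/6 and B6.SLE123 strains (horizontal axis), with the mean and SD of 4 mice as a bar beside them. Blk is the panel in which the strains overlap; Fcrl5 shows B6.SLE123 mouse 3 at 17.5 CPM, apart from the other mice of its strain.

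Divided by exonic length, the receptor chains stood far above the rest in both strains. In control mice Cd79b (65.6 ± 4.48 CPM per kb) and Cd79a (59.4 ± 4.68) overlapped, and Blk (16.2 ± 1.43) and Fcer2a (14.6 ± 0.922) followed and overlapped with each other. Tbx21 (9.26 ± 0.756), Zeb2 (8.99 ± 1.05) and Pax5 (7.83 ± 0.730) formed the next step, each overlapping its neighbour, and Fcrl5 (1.85 ± 0.298) and Ebf1 (1.82 ± 0.208) were lowest and also overlapped. The order changed in the middle for B6.SLE123 mice. Cd79b (40.9 ± 4.39) and Cd79a (40.4 ± 5.29) still led and overlapped, Blk (17.0 ± 1.77) and Tbx21 (14.5 ± 0.884) came next, Fcer2a (6.95 ± 1.19) overlapped with Pax5 (5.45 ± 0.784), and Zeb2 (4.01 ± 0.539) overlapped with Fcrl5 (3.28 ± 1.17), with Ebf1 last (1.14 ± 0.0840). Tbx21 thus stood above Fcer2a in B6.SLE123 mice and below it in control mice on this scale. For reference, Itgax, which encodes the selected CD11c, was at 276.7 and 321.3 CPM per kb in the respective strains, and Ms4a1, which encodes CD20 of B cells, at 14.3 and 13.5.

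A second comparison asked whether the other 7 genes kept their proportion to the receptor chains, with each library scaled to its summed Cd79a and Cd79b counts. Pax5 and Ebf1 showed no detectable difference on that scale, Blk, Fcrl5 and Tbx21 were higher, and Fcer2a and Zeb2 were lower in B6.SLE123 mice. Because the chains themselves fell, 72.2% of all 13784 other genes were higher and 7.62% were lower on that scale (edgeR, adjusted p below 0.05), so that the 3 higher genes of 7 are not more than the background, while the 2 lower genes of 7 fell beyond even the chains. A scale set by 2 genes also passes its own error to every gene, so the edgeR p-values are too small here and exact permutation tests of the ratios are given, for which 0.0286 is the smallest p that 4 mice against 4 allow.

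Pax5 was at 38.5 ± 2.93 counts per 100 counts of the chains in control mice and 41.0 ± 1.61 in B6.SLE123 mice (exact permutation of the mice, two-sided, p = 0.200). Ebf1 was at 9.87 ± 1.12 and 9.56 ± 0.659 (exact permutation, p = 0.686). The 95% intervals of the log2 difference in the edgeR fit, -0.16 to 0.35 for Pax5 and -0.33 to 0.24 for Ebf1, included 0 and are too narrow for the reason given for its p-values. Blk rose from 24.2 ± 1.12 to 39.4 ± 5.73 per 100 counts of the chains, Tbx21 from 12.8 ± 1.34 to 31.1 ± 4.76 and Fcrl5 from 3.57 ± 0.494 to 9.69 ± 2.90. Fcer2a fell from 25.0 ± 0.643 to 18.3 ± 2.12 and Zeb2 from 99.99 ± 16.3 to 68.2 ± 5.72. In each of these 5 genes the ratios of the strains did not overlap (exact permutation, p = 0.0286 each, not adjusted). The share of all genes with such ratios without overlap was not counted. On the scale of the chains 72.2% of the other genes were higher and 7.62% lower in the edgeR fit, so the count of 5 is not read as a result about the members.

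The choice of scale decided part of this. Among further B cell surface genes, Ms4a1 and Cd72 did not pass the test (log2 fold changes of -0.09 and -0.04) and Cd22 rose, and the summed counts of these 3 genes were used as a second scale, chosen after seeing the data. Against it Blk stood at 10.4 ± 0.698 and 9.53 ± 1.12 counts per 100, with overlapping values. On the same scale Pax5 and Ebf1 were lower in B6.SLE123 mice, by log2 ratios of -0.72 and -0.86, as were Cd79a (-0.76) and Cd79b (-0.88). Tbx21 stayed higher (0.45) and Fcer2a (-1.27) and Zeb2 (-1.36) stayed lower, each without overlap, while the ratios of Fcrl5 overlapped (0.58). Because the scale genes were picked for not falling, these ratios are a description with no test. The scale itself was uneven, since Cd22 made up 58.9% to 61.0% of it in control mice and 64.7% to 68.9% in B6.SLE123 mice.

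**Figure D2:**
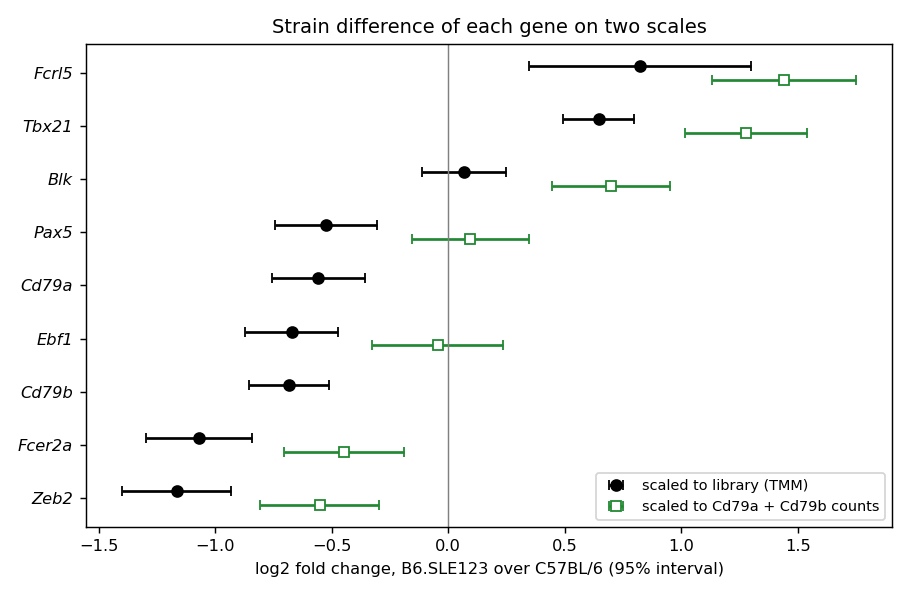
Log2 fold change of B6.SLE123 over C57BL/6 mice (horizontal axis) for the 9 genes (vertical axis) with 95% intervals, for libraries scaled by the trimmed mean of M values (filled circles) and by their Cd79a and Cd79b counts (open squares, absent for those 2 genes, with intervals that leave out the error of the scale). Pax5 and Ebf1 move from below 0 to intervals that include 0, and Blk moves from 0.07 to 0.70.

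Other genes of B cell receptor signalling did not share a direction. Of 28 coreceptor and signalling genes, the 2 chains and Blk included, 14 were lower, 8 higher and 6 not called, with a median log2 fold change of -0.10. Over all genes 26.6% were lower and 26.7% higher. The falls were widest for the inhibitory Fc receptor Fcgr2b (56.7 ± 5.03 to 20.9 ± 2.89 CPM, log2 fold change -1.44, edgeR adjusted p = 1.01e-06) and for the adaptor Bank1 (141.6 ± 8.36 to 60.0 ± 8.04 CPM, -1.24, 1.17e-06), both beyond the fall of the chains. The inhibitory coreceptor Cd22 rose (252.8 ± 12.4 to 320.1 ± 14.8 CPM, 0.34, 0.000167), and the abundant Pik3cd and Ptpn6, a kinase subunit and a phosphatase that many leukocytes use, were at log2 fold changes of -0.01 and -0.09 without passing the test.

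Of 18 B lineage transcription factors, Pax5 and Ebf1 among them, 7 were lower, 4 higher and 7 not called, with a median of -0.02. The shares over all genes were 26.6% lower and 26.7% higher. Pou2f2, which encodes the octamer-binding factor Oct-2, fell from 344.9 ± 21.8 to 178.3 ± 16.5 CPM (log2 fold change -0.95, edgeR adjusted p = 1.49e-06) and Id3, an inhibitor of E proteins, from 4.09 ± 0.399 to 2.39 ± 0.477 CPM (-0.78, 0.00175). The 2 most abundant factors rose, Irf8 from 707.9 ± 68.7 to 987.3 ± 171 CPM with overlapping values (0.48, 0.00514) and Ikzf1 from 421.1 ± 17.3 to 479.6 ± 14.5 CPM (0.19, 0.00402). Irf8 is also a factor of type 1 conventional dendritic cells.

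The wider set of 22 B cell surface and identity markers leaned lower, with 13 lower, 3 higher and 6 not called and a median of -0.49. Among all genes 26.6% were lower and 26.7% higher. Their summed level ran from 2258 to 2462 CPM in control mice and from 1893 to 2040 CPM in B6.SLE123 mice without overlap. Ms4a1 was at 88.3 ± 5.52 and 83.2 ± 8.12 CPM (log2 fold change -0.09, edgeR adjusted p = 0.322) and H2-Ob, a class II chaperone subunit, at 458.3 ± 34.8 and 469.2 ± 32.4 CPM (0.03, 0.683). Fcer2a and Bank1 had the widest falls of the markers. Like Blk, 6 of the 22 markers did not pass the test, and the chains, Pax5 and Ebf1 lay near the marker median.

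The genes reported for CD11c-positive, T-bet-positive B cells were split. Of 17, with Tbx21, Fcrl5 and Zeb2 counted, 7 were higher, 5 lower and 5 not called, with a median of 0.08. Beside this, 26.7% of all genes were higher and 26.6% lower. Itgax rose from 1329 ± 77.9 to 1543 ± 93.4 CPM (log2 fold change 0.22, edgeR adjusted p = 0.00942) and the death receptor gene Fas from 9.23 ± 0.604 to 16.9 ± 0.844 CPM (0.87, 3.01e-06). Il10ra fell from 701.8 ± 17.3 to 588.9 ± 23.3 CPM (-0.25, 0.000500), and Zeb2 had the widest change of the list. Many of these genes are also expressed by dendritic cells, the cells named in the labels.

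Lists for B cell subsets put Fcer2a and Fcrl5 beside their neighbours, with 26.7% of all genes higher and 26.6% lower as the background. Of 8 follicular genes, 5 were lower, 1 higher and 2 not called (median -0.52), with Cd55, a complement regulator, falling from 41.1 ± 2.17 to 16.2 ± 2.31 CPM (log2 fold change -1.34, edgeR adjusted p = 1.03e-06) ahead of Fcer2a. Of 11 marginal zone genes, 5 were higher, 5 lower and 1 not called (median -0.11). S1pr3, a sphingosine phosphate receptor gene, fell from 10.3 ± 1.97 to 4.50 ± 0.968 CPM (-1.21, 0.000164) while Fcrl5 rose.

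**Figure D3:**
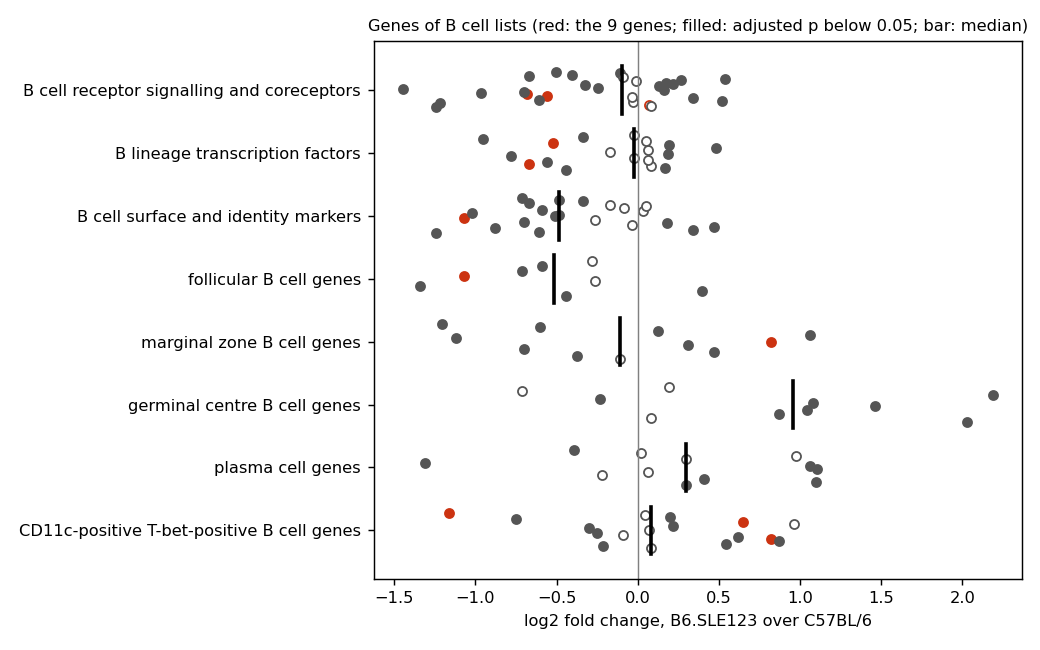
Log2 fold change of B6.SLE123 over C57BL/6 mice (horizontal axis) for each gene (points) of 8 B cell lists (vertical axis, with points spread vertically for legibility), with the 9 genes in red, genes past the edgeR threshold filled and the list median as a bar. The surface marker and follicular lists have medians of -0.49 and -0.52, and the receptor signalling and transcription factor lists are spread on both sides of 0.

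Markers of other cell types are set beside these B cell genes as descriptions. Over all genes 26.6% were lower and 26.7% higher, and some of the lists below had shares near these. All 12 red pulp macrophage markers were lower (median log2 fold change -2.42), and their summed level ran from 11710 to 15000 CPM in control mice and from 1644 to 3312 CPM in B6.SLE123 mice. Monocyte markers summed to between 3338 and 3924 CPM in control mice and to between 1036 and 1535 CPM in B6.SLE123 mice, with 3 of 8 lower, 5 not called and a median log2 fold change of -0.24, and Csf1r, the most abundant of them, went from 2324 ± 230.1 to 514.6 ± 133.7 CPM. The sums of both myeloid lists were lower in B6.SLE123 mice, as were Zeb2, Cd79a, Cd79b, Pax5, Ebf1 and Fcer2a, and their part in those values was not tested.

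Of 7 type 1 conventional dendritic cell markers 5 were higher and 1 lower. Their sums ran from 2815 to 3196 CPM in control mice and from 4575 to 5857 CPM in B6.SLE123 mice. Wdfy4, the most abundant of them, went from 1851 ± 120.7 to 3344 ± 189 CPM. Type 2 conventional dendritic cell markers summed to between 2024 and 2200 CPM and to between 1150 and 1417 CPM. Of these 7 genes 3 were lower and 4 not called. Most of that sum was Sirpa, which went from 1784 ± 85.41 to 950.5 ± 101.4 CPM. Tbx21 is also a gene of NK and T cells. Of the 10 NK cell markers 2 were lower and 8 not called. Their sums overlapped, at 96.6 to 135.9 CPM in control mice and 75.5 to 113.1 CPM in B6.SLE123 mice. Klrk1, the most abundant of them, was at 54.02 ± 4.805 and 46.04 ± 6.544 CPM. The T cell markers, with 3 of 12 higher and 2 lower, summed to between 381 and 435.7 CPM and to between 457.2 and 591.1 CPM, Cd4 and Tcf7 being the most abundant, with the receptor chains Cd3d, Cd3e and Cd3g at 2.22 to 4.13 CPM and not called. The parts of NK cell, T cell and dendritic cell RNA in the rise of Tbx21 were not tested. Plasmacytoid dendritic cell markers, with 2 of 9 higher and 3 lower, summed to between 499.4 and 546.5 CPM and to between 442 and 484.2 CPM. Neutrophil markers (2 of 7 higher, 2 lower) summed to between 82.3 and 90.0 CPM and to between 26.3 and 39.5 CPM. Most of that sum was Csf3r, which went from 76.46 ± 2.641 to 25.15 ± 3.175 CPM. Erythroid markers (7 of 8 lower) summed to between 79.1 and 264.9 CPM and to between 8.67 and 39.0 CPM.

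**Figure D4:**
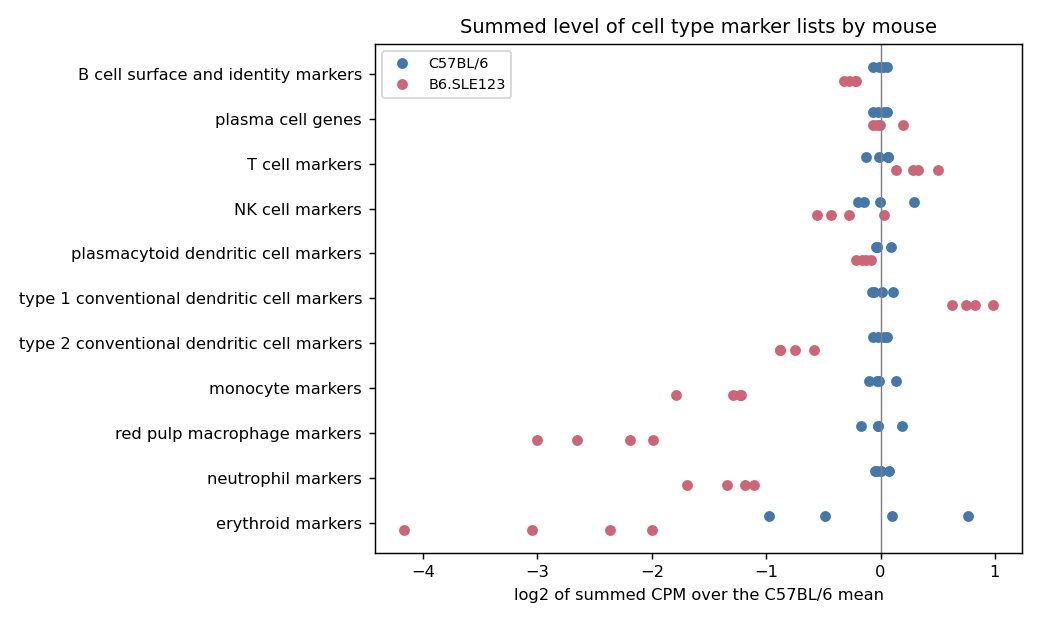
Summed CPM of each marker list in each mouse (points), as log2 of its ratio to the C57BL/6 mean (horizontal axis), for 11 lists (vertical axis). The B cell list sits slightly below the control mice in B6.SLE123 mice, the type 1 conventional dendritic cell list above them, and the red pulp macrophage and erythroid lists far below them.

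The genes whose pattern over the 8 mice, strain difference included, was most like that of a member were found by the root mean square distance of centred log2 CPM, among 11746 genes with a mean of at least 1 CPM. Those near Cd79a included Hadh (0.0583), Pax5 (0.0655), Pkig (0.0680) and Dgat2 (0.0697). For Pax5 they were Scd1 (0.0551), Chst3 (0.0592), Tnfrsf13c (0.0640), Cd79a (0.0655) and Rab38 (0.0679). Cd79a and Pax5 were thus each among the nearest genes of the other. Tnfrsf13c, which encodes the receptor for the survival factor BAFF, was near Pax5 but not among the 5 genes nearest to Cd79a. The genes near Tbx21 included Tjp3 (0.0676), Fbxo5 (0.0686), Gm45902 (0.0714) and Plxnd1 (0.0715). Zeb2 lay nearest to Ocrl (0.0800), Wdfy3 (0.0852), Mr1 (0.102), Wwp1 (0.103) and Creb3l2 (0.108), and no other member was among its 5 nearest genes or those of Tbx21. The points of these comparisons share the strain difference, libraries and depth.

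These genes were well covered by reads. Counts summed to between 25761789 and 32931045 per control mouse and between 25563070 and 37367094 per B6.SLE123 mouse, and each of the 9 genes had between 161 and 6155 counts in every mouse. Between mice of a strain the counts differed beyond sampling noise in every pair, with a chi-square per degree of freedom from 4.87 to 18.3.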

How the data were processed

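RNA of CD11c-positive splenocytes was sequenced for 4 C57BL/6 and 4 B6.SLE123 mice from stranded mRNA libraries. Per the labels, the authors used cutadapt for trimming, STAR for alignment to mm10 and featureCounts for counting, and they deposited the raw counts of 13786 protein-coding genes. The table holds no gene whose larger strain median was under 5 counts, and 21 symbols that stood as dates were put back by gene identifier. Its other columns hold the authors' DESeq2 comparison (mean normalized signal, log2 fold change, standard error, test statistic, p-value, adjusted p-value and fold change) and were not used. Tool versions and the strand setting of the counting were not given in the sources used here.

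The strains were compared in edgeR 4.0.16 under R 4.3.3 (TMM factors, quasi-likelihood F test, strain as the only term, no filter, Benjamini-Hochberg adjustment over all genes, called at an adjusted p below 0.05). Log2 CPM used a prior count of 2. A further fit scaled each library to its summed Cd79a and Cd79b counts. Levels per kb were divided by the exonic length in GENCODE M21. The method was also run on simulated data in which few genes changed and the receptor chains did not. In these data many genes differed and the chains fell, so that run does not test the scale of the chains, and no conclusion is drawn from it. The members and gene lists were chosen with earlier results of these data known, so counts over lists are descriptions.

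Genes named in the text were the 9 members, the 5 genes nearest in pattern to Cd79a, Pax5, Tbx21 and Zeb2, and up to 4 genes of a list, by highest mean CPM or widest change past the threshold. Ms4a1, Cd22 and Cd72 were named as the alternative scale, Itgax as the gene of the selected marker, and Cd3d, Cd3e and Cd3g after their values were seen. The alternatives were relative log expression factors, at least 10 counts in every sample (12053 genes), DESeq2 1.42.0, voom in limma 3.58.1, a block for the replicate number, a change of more than 2-fold and fits without each of the mice. The exact permutation test of the ratios and the scale of Ms4a1, Cd22 and Cd72 were chosen after seeing the data. A planned scale and a few genes that the rule names are not reported here.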

Additional observations from a re-analysis of the deposited data

Results flagged for a closer look

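Of 52 groups of 4 mice tested for a mouse far from the other 3, 6 held such a mouse by Dixon's criterion, which chance meets in about 1 in 20 groups. Among the members these were Ebf1 in B6.SLE123 mouse 2 (3.323 against a median of 3.541 log2 CPM in the other mice), Fcer2a in C57BL/6 mouse 1 (5.352 against 5.530 log2 CPM) and Fcrl5 in B6.SLE123 mouse 3 (4.134 against 3.272 log2 CPM). Among summed lists, the germinal centre genes were low in C57BL/6 mouse 2 (7.568 against 7.712 log2 CPM). The plasmacytoid dendritic cell markers were high in C57BL/6 mouse 2 (9.094 against 8.968 log2 CPM), and the monocyte markers were low in B6.SLE123 mouse 2 (10.016 against 10.572 log2 CPM). B6.SLE123 mouse 2 was also the lowest of its strain for Cd79a, Cd79b, Pax5, Fcer2a and Zeb2. The cause of these gaps was not tested.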

How the results depend on the processing

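Of 116 alternative values of the counts of calls, 110 were within 1.5 times the reported count, and of 194 alternative values of single genes, 189 stayed on the same side of 0 and of the threshold. The 110 include the counts of members without overlap after leaving out a mouse, which could not fall. A like count also does not show that the same genes were called. Requiring a change of more than 2-fold left 1524 genes (against 7356), 2 members (Zeb2 and Fcer2a, against 8) and 3 genes of the receptor signalling list (against 22). It left 0 transcription factors (against 11), 3 surface markers (against 16) and 1 gene of the CD11c-positive B cell list (against 12).

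With the scale of Ms4a1, Cd22 and Cd72, chosen after seeing the data, in place of Cd79a and Cd79b, 7433 genes were called (against 11000) and 6 members (against 5). The members called were not the same, since Pax5 and Ebf1 came in and Blk dropped out. Because the scale was picked from these data, its calls are a description and not read as tests. Pax5 turned to a log2 fold change of -0.72 and Ebf1 went to -0.86, while Blk turned to -0.12, on a scale of genes picked for not falling. Without C57BL/6 mouse 2, Ebf1 relative to the chains turned to 0.0297 (from -0.1004 to 0.0297 over the mice left out), and without B6.SLE123 mouse 3, Blk turned to -0.0049 (edgeR adjusted p = 0.963, with up to 0.1029 over the mice left out). Neither value was past the threshold, with all mice or without these.

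Leaving out each mouse in turn gave 6496 to 7013 called genes, 8 called members each time, 8 members without overlap each time, and 10405 to 11077 genes and 5 members called relative to the chains. The lists then held 19 to 21 called receptor signalling genes, 15 to 17 surface markers, 9 to 11 transcription factors and 11 to 12 genes of the CD11c-positive B cell list. The count of members without overlap could not fall, because leaving out a mouse only narrows the range of its strain, so it is no test. Genes with at least 10 counts gave 6778 calls, relative log expression 7347, DESeq2 7207 and limma-voom 7376.

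Mice with the same number did not deviate together throughout, with correlations of deviations of 0.046, 0.173, 0.050 and 0.125 for numbers 1 to 4, and C57BL/6 mice 2 and 4, but not 1 and 3, correlated best with their own number. With the replicate block, 7183 genes and 8 members were called.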

Other observations

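Lists of genes of activated and secreting B cells were plotted above but not described in the text there. Over all genes 26.7% were higher and 26.6% lower. Of 10 germinal centre genes, 6 were higher in B6.SLE123 mice, 1 lower and 3 not called, with a median log2 fold change of 0.96 against -0.0019 over all genes. Their summed level ran from 189.8 to 210.5 CPM in control mice and from 242.2 to 288.6 CPM in B6.SLE123 mice. Gcsam, a signalling protein gene of germinal centre B cells, rose from 44.1 ± 5.59 to 90.9 ± 18.7 CPM (log2 fold change 1.05, edgeR adjusted p = 0.000111), and Bcl6, a repressor needed for germinal centres, was at 124.7 ± 5.75 and 132.2 ± 5.45 CPM without passing the test (adjusted p = 0.155). Of the 10 genes 4 stood below 1 CPM, and the table holds genes by the larger of the strain medians, so that calls among such genes are not read here.

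Of 12 plasma cell genes, 5 were higher, 2 lower and 5 not called (median log2 fold change 0.30), beside 26.7% higher and 26.6% lower over all genes. Jchain, which joins secreted immunoglobulins, rose from 24.5 ± 3.59 to 52.7 ± 19.1 CPM (1.10, edgeR adjusted p = 0.00100), and Prdm1, which drives secretion but is also expressed by macrophages and T cells, fell from 24.7 ± 1.47 to 9.96 ± 2.46 CPM (-1.31, 2.36e-05). The summed plasma cell list overlapped between the strains, at 456.8 to 496.3 CPM in control mice and 457.6 to 548.1 CPM in B6.SLE123 mice.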
